A study of Homo sapiens with 8 samples.

Results

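The genes GABRG1, GABRA2, GABRA4 and GABRB1 on chromosome 4, GABRB2 and GABRA6 on chromosome 5 and GABRG3 on chromosome 15 encode subunits of the GABA-A receptor, and labelled DNA in them was followed through S phase in single cells. They are 7 of 19974 protein-coding genes on the autosomes and chromosome X. A molecule was counted for a gene when its position lay within the RefSeq gene body in GRCh38, whatever its strand. The genes were chosen by their replication timing (GABRB2 was known to be among the latest genes) and by the later timing of GABRB1 in KO cells, so their timing and its difference between genotypes are described here, and nothing is read from a test of either. The cells were RPE-1 hTERT, a telomerase-immortalised line of human retinal pigment epithelium, either CFAP20-KO (CFAP20 knocked out) or wild type (WT). Both genotypes had been labelled for 15 min with EdU at 10 µM, which is built into new DNA in place of thymidine, and had no other treatment. Each of 8 plates held both. Whether the knockout was 1 clone, and whether plates came from separate cultures, is not stated in the labels, and p-values therefore reflect only how plates differ, which may be technical. Labelled DNA shows neither the lost CFAP20 protein nor marker expression, so neither the knockout nor the cell type was checked.

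The plates held 1746074 to 4181841 fragments, each taken as 1 molecule, in 3023 wells (1429 KO, 1594 WT). A minimum of 1000 autosomal molecules was met by 2430 cells (1140 KO, 1290 WT), which were ordered from early to late S phase. A minimum of 5000 was met by 914 of them (431 KO, 483 WT), the strongly labelled cells. Over 5 equal groups of the order of all 2430 cells, median autosomal molecules per cell were 13320, 1675, 1633.5, 1829.5 and 16290.5. The middle positions were thus held mostly by weakly labelled cells, and whether they are mid S phase was not tested. KO cells held fewer molecules, 8232 ± 1834 per cell against 11051 ± 2709 in WT cells (SD, n = 8 plates), and were lower in 8 of 8 plates. The 7 genes held 16608 molecules, 0.0701% of the autosomal total. Timing is the mean position, from 0 (early) to 1 (late), of the cells in which a gene was labelled, weighted by molecules; it was measured in 8608 autosomal genes, with a median of 0.246.

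GABA-A receptors are chloride channels of several subunits that open when the transmitter GABA binds, and they carry most fast inhibition in the brain. Alpha and beta subunits form the GABA site, and a gamma subunit gives the channel its benzodiazepine site. Their genes lie in clusters that arose by duplication of an ancestral group. DNA is copied in megabase domains, early or late in S phase. Late domains are often gene-poor or hold genes that are silent in the cell type, and between an early and a late domain timing changes gradually.

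On chromosome 4 the genes spanned chr4:46035769-47426447 in the order GABRG1, GABRA2, GABRA4 and GABRB1. GABRG1, GABRA2 and GABRA4 lie on the minus strand and GABRB1 on the plus strand. GABRG1 and GABRA2 were 119 kb apart and GABRA2 and GABRA4 were 529 kb apart. The bodies of GABRA4 and GABRB1 were separated by only 65 bases, in opposite directions. The promoter listed for GABRB1, chr4:47031317-47031566, lies within its gene body and not in that gap. On chromosome 5 GABRB2 (minus strand) and GABRA6 (plus strand) lay 137 kb apart, and on chromosome 15 GABRG3 (plus strand) covered 571 kb. The 65 bases between GABRA4 and GABRB1 are shown because the timing of the chromosome 4 cluster passed through its middle values there. The 250 bases before the starts of GABRA6 and GABRG3 are shown as those of the latest and the longest of the 7 genes. All are from RefSeq (GRCh38.p14), 5′ to 3′ on the strand named, with CG pairs in capitals.
GABRA4-GABRB1 gap (chr4:46993582-46993646, minus strand): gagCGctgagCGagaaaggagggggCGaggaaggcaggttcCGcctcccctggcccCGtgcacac
GABRA6 (chr5:161685471-161685720, plus strand): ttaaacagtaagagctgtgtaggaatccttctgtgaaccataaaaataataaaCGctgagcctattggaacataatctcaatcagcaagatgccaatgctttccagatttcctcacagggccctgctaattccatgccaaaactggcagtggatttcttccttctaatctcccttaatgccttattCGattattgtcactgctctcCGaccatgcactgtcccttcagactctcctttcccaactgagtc
GABRG3 (chr15:26970931-26971180, plus strand): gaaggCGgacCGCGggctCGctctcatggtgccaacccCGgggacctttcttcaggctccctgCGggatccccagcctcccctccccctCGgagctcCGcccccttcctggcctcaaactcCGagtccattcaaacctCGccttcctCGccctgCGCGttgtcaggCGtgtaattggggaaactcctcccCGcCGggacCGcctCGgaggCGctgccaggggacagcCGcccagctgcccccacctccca

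The promoters of these late genes had no common base composition. The stretch before GABRA6 held 3 CG pairs at 43.2% G+C, the one before GABRG3 held 20 at 69.6%, and the 65 bases between GABRA4 and GABRB1 held 5 at 70.8%. Of 35116 promoters of the same 250-base length, 77.1% held at least as many CG pairs as GABRA6 and 32.4% as many as GABRG3; the median was 11. GABRB2, with 11 CG pairs at 38.0% G+C, GABRG1, with 6 at 51.2%, and GABRB1, with 8 at 49.2%, lay between them in CG pairs. GABRA4 had 23 at 63.6%, and the starts listed for GABRA2 had 23, 10 and 6. The motif TATAAA, searched on both strands, was absent before 6 of the 7 genes and present before 1 of the starts listed for GABRA2; it was in 10.7% of all promoters.

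Except for GABRA4 and GABRB1, the subunit genes were among the latest genes of the genome. GABRA6, the alpha-6 subunit known from cerebellar granule cells, had the latest mean of the 8608 genes at 0.896 ± 0.0565 (SD, n = 8 plates), with plates at 0.815 at the lowest, 0.899 at the median and 0.961 at the highest. It rested on 199 molecules, 11 to 43 per plate, and the rank was not kept: without plate 1 it was at 0.887 and GABRB2 at 0.889, and among strongly labelled cells GABRA6 was at 0.849 and GABRB2 at 0.867. GABRB2, the beta-2 subunit abundant in brain, had 0.887 ± 0.0332 from 2619 molecules (0.843, 0.888 and 0.933), and 2 genes were later. These neighbours did not differ beyond their spread, with GABRA6 later in 5 of 8 plates.

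GABRG1, the gamma-1 subunit, was at 0.867 ± 0.0428 (lowest plate 0.786, median 0.879, highest 0.909) with 31 later genes. GABRA2, the alpha-2 subunit, was at 0.842 ± 0.0475 (0.745, 0.846 and 0.892) with 100 later genes. GABRG3, the gamma-3 subunit and the best measured with 6187 molecules, was at 0.815 ± 0.0257 (0.773, 0.818 and 0.846) with 198 later genes. The ranges over plates of these 3 genes overlapped with each other and with that of GABRB2. Within plates some differences had 1 sign: GABRB2 was later than GABRA2 and than GABRG3 in 8 of 8 plates, by 0.0445 ± 0.0281 and 0.0723 ± 0.0294 (SD), and GABRG1 was later than GABRA2 in 8 of 8, by 0.0243 ± 0.0138. GABRB2 was later than GABRG1 in 6 of 8 plates, GABRG1 than GABRG3 in 7 and GABRA2 than GABRG3 in 6.

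GABRA4 and GABRB1 stood apart from the other 5 genes, with no plate in common. GABRA4, the alpha-4 subunit, was at 0.543 ± 0.0494 (lowest plate 0.474, median 0.533, highest 0.628) with 1516 later genes. GABRB1, the beta-1 subunit, was the earliest of the 7 at 0.386 ± 0.0337 from 4358 molecules (0.342, 0.390 and 0.440), with 2571 later genes. Their plates did not overlap either, although the genes are neighbours. All 7 members were later than the median gene, as the choice of late genes would give for most of them.

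**Figure D1:**
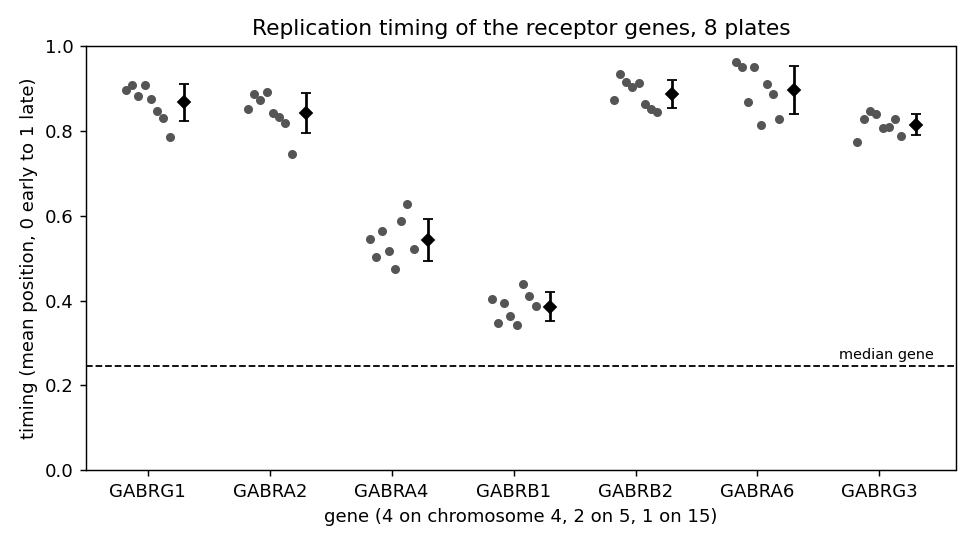
Timing of the 7 genes (vertical axis, mean position from 0 early to 1 late), with 1 grey point per plate, all cells of both genotypes together, and a diamond with bars for the mean and SD over 8 plates; the dashed line is the median of all measured genes, 0.246. GABRA4 and GABRB1 lie between 0.342 and 0.628, below every plate of the other 5 genes.

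Among the strongly labelled cells, placed in an order of their own and with genotypes pooled, the genes differed in where their label was highest. The order was cut into 10 equal groups, numbered from the earliest. GABRB1 had its highest label in group 4, at 2.14 times its mean over the groups. GABRA4 followed in group 6 at 2.55 times. GABRG1, GABRA2, GABRB2, GABRA6 and GABRG3 all had their highest label in group 10. There the level differed: GABRB2 reached 6.04, GABRA6 5.94 and GABRG1 5.76 times their means, but GABRA2 reached 4.35 and GABRG3 3.08 times. The label of GABRG3 was spread more widely, with 1.80 times its mean already in group 8, where GABRB2 had 0.506. By genotype, GABRB1 was highest in group 4 in WT cells (2.26) and in group 6 in KO cells (2.28). GABRA4 was highest in group 5 in WT cells (2.44) and in group 6 in KO cells (3.03). GABRG3 had 2.24, 2.26 and 2.21 in groups 8 to 10 in WT cells, against 1.31, 2.86 and 4.00 in KO cells.

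The share of strongly labelled cells with at least 1 molecule in a gene was also taken over 5 equal groups of the order, genotypes pooled. At this width GABRB1 and GABRA4 both had their highest share in group 3. GABRB2 was labelled in 149 of 183 cells of group 5, the latest (81.4%, exact 95% interval 75.0 to 86.8%) and in 23 of 183 of group 1 (12.6%, 8.14 to 18.3%). GABRB1 was labelled in 162 of 182 cells of group 3 (89.0%, 83.5 to 93.2%) and in 66 of 183 of group 5 (36.1%, 29.1 to 43.5%). GABRA4 was labelled in 83 of 182 of group 3 (45.6%, 38.2 to 53.1%) and in 8 of 183 of group 5 (4.37%, 1.91 to 8.43%). The intervals cover counting error only, and shares between genes follow their lengths as well, since GABRB1 is 433 kb and GABRA4 is 74.7 kb.

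The molecules of the late genes were concentrated in the last cells of the order. In group 5 of 5 lay 85.6% of the strongly labelled cells' molecules in GABRB2, 82.3% of those in GABRA6, 82.3% in GABRG1, 69.9% in GABRA2 and 50.6% in GABRG3. The same group held 2.20% of the molecules in GABRB1 and 2.11% of those in GABRA4. Median autosomal molecules per cell were 17925 in group 5 and 16503 in group 1, but 23670 to 24585 in groups 2 to 4, so shares of cells labelled in the middle groups rest on deeper cells.

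**Figure D2:**
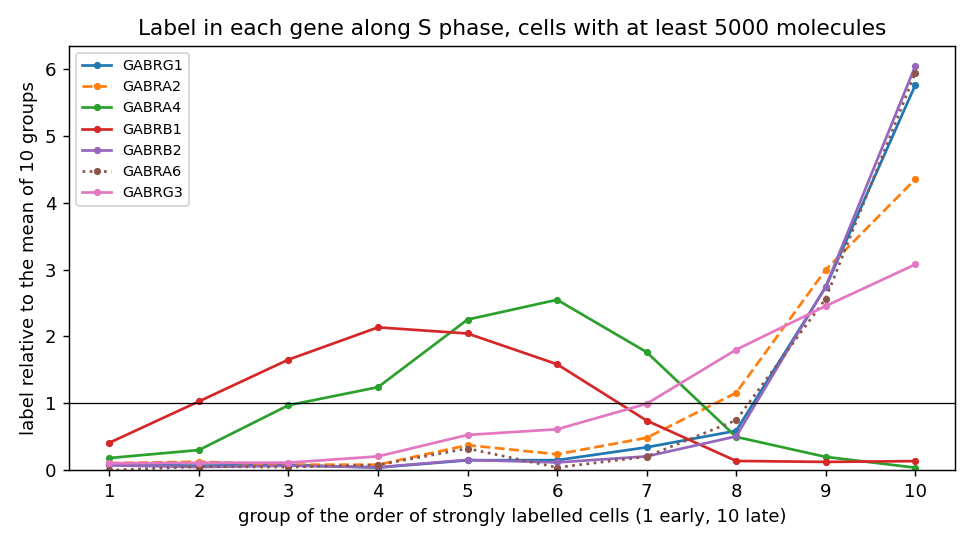
Label in each gene (molecules in the gene over all autosomal molecules, relative to the mean of 10 equal groups) against the group of the order, in 914 cells with at least 5000 molecules, plates and genotypes pooled. GABRB1 is highest in group 4 and GABRA4 in group 6, while the other 5 genes are highest in group 10, GABRB2 at 6.04 and GABRG3 at 3.08.

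Along the chromosome 4 cluster timing fell from late to early; since the clusters were chosen by timing, the gradient is given as a description. Over windows of 50 kb the slope was -0.49 ± 0.059 per Mb (SD, n = 8), and all 8 plates had a negative slope. The window centred 525 kb from the start of GABRG1 was still at 0.865 ± 0.0182 (SD). GABRA4 covered the steepest stretch, with 0.653 ± 0.0560 at 875 kb and 0.520 ± 0.0424 at 925 kb. The window of the 65-base gap between GABRA4 and GABRB1 was at 0.500 ± 0.0890, and the last window of GABRB1 at 0.263 ± 0.0880. Beyond GABRB1 timing had a low point of 0.197 ± 0.0248 at 1466 kb and was later again at 1816 kb, at 0.410 ± 0.0807.

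The flanks of the cluster lay on both sides of its own timing. The 500 kb before GABRG1 were at 0.869 ± 0.0322 and the 500 kb after GABRB1 at 0.307 ± 0.0421 (SD, n = 8), against 0.554 ± 0.0275 for the 4 genes. The nearest measured gene on the GABRG1 side, GNPDA2, an enzyme of amino sugar metabolism, was 1309 kb away at 0.792 ± 0.0627. On the GABRB1 side ATP10D, a lipid flippase, was 58.8 kb away and near the median gene at 0.231 ± 0.0446.

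The clusters on chromosomes 5 and 15 had slopes of both signs over plates. The slope was -0.025 ± 0.163 per Mb on chromosome 5 and 0.0099 ± 0.0694 on chromosome 15 (SD, n = 8). GABRB2 and GABRA6 together were at 0.888 ± 0.0325, beside flanks of 0.841 ± 0.0263 and 0.873 ± 0.0488. ATP10B, a lipid flippase gene 359 kb before GABRB2, was earlier at 0.685 ± 0.0328. Around it KO cells were earlier than WT cells before centring. At 725 kb before GABRB2 they were at 0.252 ± 0.0457, against 0.422 ± 0.0717 (KO later in 0 of 8 plates). At 475 kb they were at 0.669 ± 0.128, against 0.807 ± 0.0973 (1 of 8). In the windows from 275 kb to the cluster the difference was -0.0206 to 0.0140. These differences were not tested. GABRG3 at 0.815 ± 0.0257 had flanks of 0.815 ± 0.0362 and 0.792 ± 0.0430, the second from 3516 molecules against 5106 in the first.

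**Figure D3:**
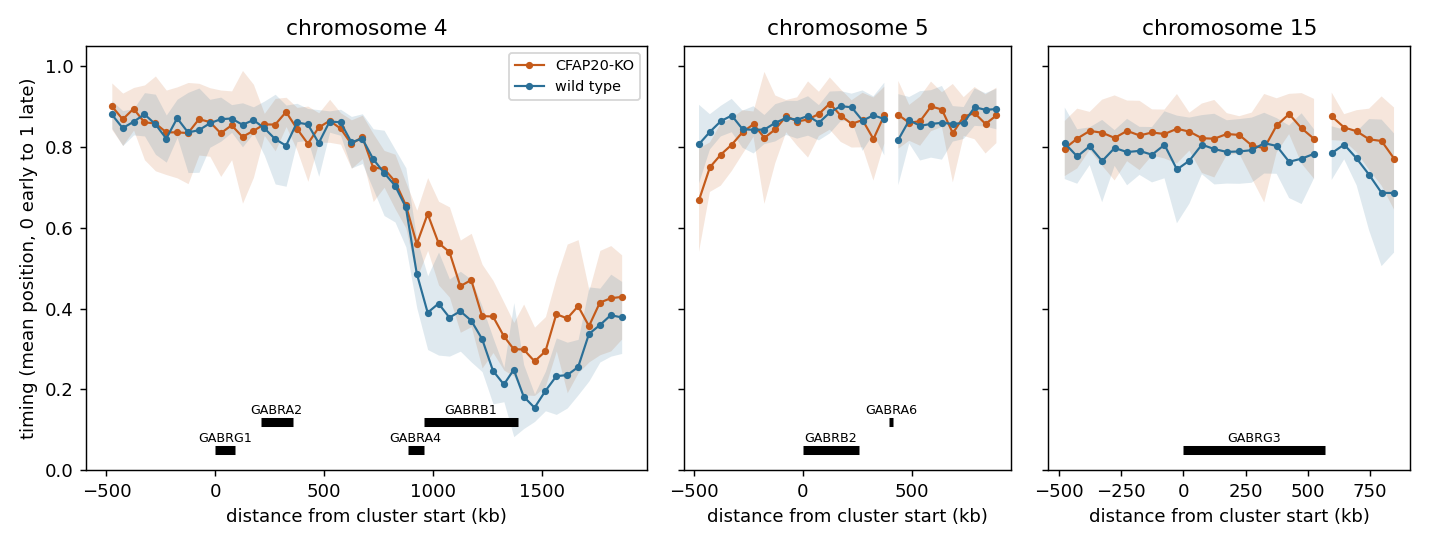
Timing in 50 kb windows (vertical axis, mean position from 0 early to 1 late, not centred) against distance from the first base of each cluster, for CFAP20-KO and wild-type cells; points are means and bands the SD over 8 plates, and black bars mark the genes. Windows with too few molecules in a library are left out. Timing falls across GABRA4 and GABRB1 on chromosome 4, with KO cells later over GABRB1 and beyond it, and is late within the clusters on chromosomes 5 and 15.

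In KO cells GABRB1 was labelled later, which is one of the values that chose the genes. Its timing in KO cells was 0.379 at the lowest plate, 0.465 at the median and 0.542 at the highest, against 0.255, 0.339 and 0.393 in WT cells. The ranges overlapped only through plate 8, with 0.379 in KO and 0.393 in WT cells. The median gene was at 0.328 ± 0.0416 in KO cells, against 0.291 ± 0.0339 in WT cells (SD, n = 8). KO cells also lay later in the shared order, at a mean position of 0.518 against 0.485, and the part of this in the median gene was not tested. Each library was therefore centred on its median gene. The centred difference of GABRB1, KO minus WT, was 0.0921 ± 0.0655 and above 0 in 7 of 8 plates. With each of 10 groups of the order given equal weight, which takes out unequal numbers of cells and molecules along the order, it was 0.0590 ± 0.0412.

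The centred differences of the other 5 genes that could be compared were smaller than their SD. GABRG3 was at 0.0135 ± 0.102, GABRA4 at 0.0236 ± 0.119 and GABRA2 at -0.0022 ± 0.0834. GABRB2 was at -0.035 ± 0.0670 and GABRG1 at -0.061 ± 0.0966. Centring took the same amount from every gene of a library, late or early. Before it, GABRB2 was at 0.888 ± 0.0449 in KO and 0.886 ± 0.0314 in WT cells. GABRG1 was at 0.849 ± 0.0885 and 0.873 ± 0.0365, and GABRG3 at 0.839 ± 0.0469 and 0.789 ± 0.0543. Among strongly labelled cells GABRG3 was at 0.0603 ± 0.0965, beside 0.0576 ± 0.0412 for GABRB1. GABRA6 had no molecule in KO cells of plate 5 and was not compared. Of the 6 genes, 1 (GABRB1) was past an adjusted p of 0.05 as later in KO cells, beside 4.79% of 4610 genes called later; with the contrast used in the choice, nothing is read from that count. With equal weight per cell the count was 0, beside 31 of the 4610 genes called later. In that setting GABRB1 was at 0.0453 ± 0.0417 (SD), GABRA2 at 0.0752 ± 0.0894 and GABRG1 at -0.0731 ± 0.0763.

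Within GABRB1 the difference was greatest at the end next to GABRA4. The gene was cut into 4 equal stretches of 108 kb. In stretch 1, next to GABRA4, timing was 0.594 ± 0.0944 in KO cells and 0.388 ± 0.0866 in WT cells (SD, n = 8), and the centred difference was 0.169 ± 0.111 and above 0 in 8 of 8 plates. It was 0.0576 ± 0.0933 in stretch 2 (5 of 8 plates), 0.0400 ± 0.132 in stretch 3 (5 of 8) and 0.0765 ± 0.0610 in stretch 4 (7 of 8). The window over the 65-base gap was at 0.634 ± 0.0901 in KO cells and 0.390 ± 0.0914 in WT cells, before centring. In GABRA4, on the other side of that gap, KO cells were at 0.560 ± 0.0834 and WT cells at 0.487 ± 0.0847 in the adjoining window (KO later in 5 of 8 plates), and at 0.656 ± 0.0565 and 0.650 ± 0.0979 in the one farther away. Beyond the far end of GABRB1, KO cells were also later: at 1466 kb they were at 0.270 ± 0.0845 and WT cells at 0.155 ± 0.0341 (8 of 8 plates), and over the windows from 1416 to 1666 kb the uncentred difference was 0.0979 to 0.153. The differences between these stretches were not tested.

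Where the molecules of GABRB1 lay describes the same difference, which chose the gene, and is no separate evidence of it. Of the strongly labelled KO cells' molecules in GABRB1, 6.08% lay in group 1 of 5, 29.8% in group 2, 47.4% in group 3 and 14.4% in group 4. In WT cells the shares were 14.3%, 46.4%, 30.8% and 6.37%. GABRB1 was labelled in 66 of 82 KO cells of group 2 (80.5%, exact 95% interval 70.3 to 88.4%), against 95 of 101 WT cells (94.1%, 87.5 to 97.8%). Median autosomal molecules per cell in that group were 19394 in KO and 29162 in WT cells. Cells were pooled over plates, and the intervals cover counting error only, not differences between plates. The part of depth in the difference between these shares was not tested. With plates pooled, GABRG3 also had more of its molecules late in KO cells, with 63.9% in group 5 against 41.4% in WT cells. It was labelled there in 83.5% of 91 KO cells and 66.3% of 92 WT cells. By plate, over all ordered cells, its centred timing difference ran from -0.152 to 0.175 and was above 0 in 5 of 8. For GABRB2 the shares of molecules in group 5 were 87.9% in KO and 84.0% in WT cells. These shares were not tested.

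**Figure D4:**
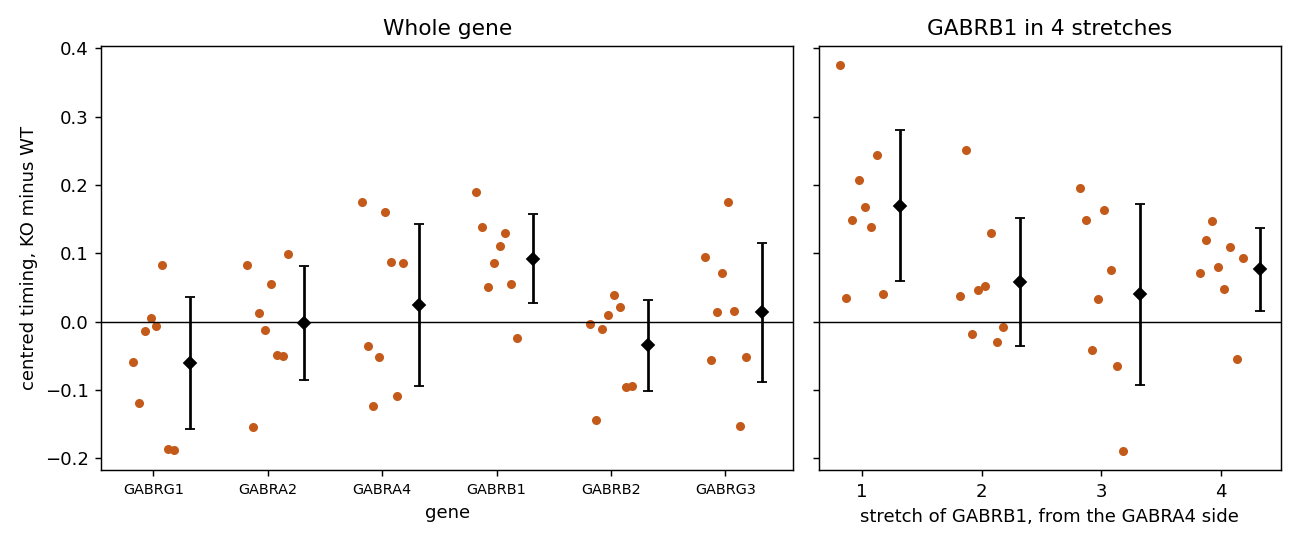
KO minus WT timing after centring each library on its median gene (vertical axis), for 6 genes and for 4 equal stretches of GABRB1; points are plates, diamonds with bars the mean and SD over 8 plates. GABRB1 is above 0 in 7 of 8 plates, and stretch 1 in 8 of 8 with a mean of 0.169.

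The amount of labelled DNA in the genes did not differ detectably between the genotypes. Scaled to 1000000 autosomal molecules, GABRB1 had 292 molecules per Mb in the lowest KO plate, 447 at the median and 552 in the highest, against 291, 429 and 467 in WT cells. GABRB2 had 264, 413 and 617 in KO cells, against 351, 402 and 518 in WT cells. GABRG3 had 341, 466 and 654 in KO cells, against 331, 450 and 620 in WT cells. The genotypes overlapped at each of these genes, and the KO values of GABRB2 were more widely spread.

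Over all genes, limma voom called 0 of the 7 members at an adjusted p under 0.05 beside 1.46% of 9265 genes called in either direction. At an unadjusted p under 0.05 it called 1 (GABRA6), beside 12.0% of all genes, and 0 once plates were blocked. The log2 difference, KO minus WT, was 0.07 ± 0.12 (SE) in GABRB1, with an adjusted p of 0.889. It was 0.19 ± 0.18 in GABRA2 (adjusted p = 0.732), 0.11 ± 0.12 in GABRG3 (0.775) and 0.07 ± 0.14 in GABRB2 (0.895). It was -0.13 ± 0.22 in GABRG1 (0.878) and -0.01 ± 0.22 in GABRA4 (0.996). GABRA6 had the greatest difference, -1.01 ± 0.46, from 57 molecules in KO and 142 in WT cells, with an adjusted p of 0.364 in limma voom. Without plate 5, where KO cells held no molecule in it, the difference was -0.38 ± 0.41 (SE; limma adjusted p = 0.810). Its antisense transcript GABRA6-AS1 lies within the gene and shares its molecules.

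Per cluster, density in KO over WT cells was 0.07 ± 0.23 on the log2 scale on chromosome 4, 0.00 ± 0.45 on chromosome 5 and 0.08 ± 0.52 on chromosome 15 (SD, n = 8). None differed from 0 (exact sign-flip permutation tests, adjusted p = 0.973, 1 and 0.973). The rest of each chromosome was at 0.06, 0.04 and -0.02.

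Set against the autosomal 500 kb bins kept for the order, in the same plate, the clusters held more label per kb. All cells were pooled, and the genes had been chosen by timing in the same labelling. Label per kb also follows how many molecules came from late cells. That part was not tested, so nothing is read from the p-values below about the genes themselves. The log2 density was 0.29 ± 0.17 in the chromosome 15 gene and above 0 in 8 of 8 plates, with an adjusted exact sign-flip permutation p of 0.0234. It was 0.20 ± 0.17 on chromosome 4 and 0.21 ± 0.17 on chromosome 5 (7 of 8 plates each, adjusted exact permutation p = 0.0313 for both). Of 5727 genes of at least 50 kb, whose median was -0.13, 79.3% had a lower density than GABRB1 or GABRB2 and 89.3% a lower one than GABRG3. With 7 plates, leaving out any of plates 2 to 5 gave adjusted p = 0.0625 on chromosomes 4 and 5, as did leaving out plate 1 on chromosome 4.

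**Figure D5:**
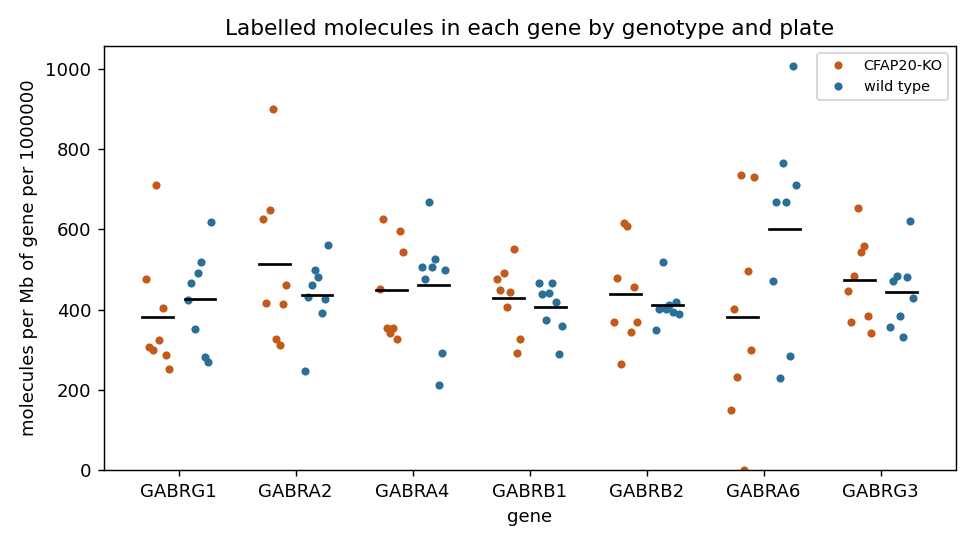
Labelled molecules per Mb of gene per 1000000 autosomal molecules (vertical axis) in CFAP20-KO and wild-type cells; each point is 1 plate and the black line the mean of 8. The genotypes overlap in all 7 genes; KO cells of plate 5 held no molecule in GABRA6.

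In counts not scaled for depth, KO cells labelled in GABRB1 held fewer molecules in it than WT cells. The mean over labelled cells was 3.81 ± 1.04 molecules in KO cells and 4.63 ± 1.27 in WT cells (SD, n = 8 plates). The difference was -0.82 ± 0.49 with KO cells lower in all 8 plates (exact permutation p = 0.00781, adjusted over 6 genes 0.0469). In the same plates KO cells held 0.750 times the autosomal molecules of WT cells, and the part of this in the difference was not tested. Among strongly labelled cells it was -1.04 ± 1.52, with an adjusted exact permutation p of 0.250. The other 5 genes had adjusted p from 0.172 to 0.563 in the same exact test.

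The width of the interval in which each gene was labelled showed no detectable difference between genotypes. The SD of position of labelled cells at GABRB1 was 0.276 ± 0.0186 in KO and 0.266 ± 0.0211 in WT cells, and at GABRB2 0.196 ± 0.0342 in KO and 0.185 ± 0.0426 in WT cells. The differences, KO minus WT, were 0.0097 ± 0.0248 and 0.0105 ± 0.0505 (exact sign-flip permutation tests over 6 genes, adjusted p = 0.684 for both).

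Labelling of neighbouring genes went together in some pairs and not in others. Among 374 strongly labelled cells in the latest of 5 equal groups of all ordered cells, GABRB2 was labelled in 88.7% of the 53 cells labelled in GABRA6 and in 48.3% of the others. GABRG1 was labelled in 49.5% of the 188 cells labelled in GABRA2 and in 21.5% of the others. GABRA4 was labelled in 11.2% of the GABRA2-labelled cells and in 19.9% of the others. GABRB1 was labelled in 51.7% of the 58 cells labelled in GABRA4, 65 bases away, and in 40.2% of the others. GABRG1 and GABRB2, on different chromosomes, also went together, with GABRG1 in 49.0% of the 202 cells labelled in GABRB2 and 19.8% of the others. GABRG3 was labelled as often with GABRB2 (74.8%) as without it (74.4%). These shares follow depth and position in the order as well as distance and are given as a description.

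Genes on other chromosomes had profiles over 20 groups of ordered cells close to those of GABRB2, GABRG3 and GABRB1. For GABRB2 the closest of 2944 candidates were TMEM132D (r = 0.997), PCDH15, a cadherin of hair cells (0.996), and LINGO2 (0.995). For GABRG3 they were PTPRT, a receptor phosphatase (0.991), LRRTM3 (0.988) and EYS (0.985), of 3066. For GABRB1 the likeness was lower, with DENND1A at 0.946, SLC8A1, the sodium-calcium exchanger, at 0.945 and SLIT3, a guidance ligand, at 0.931, of 2947. The groups share cells and depth, so the correlations describe and were not tested.

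Other genes of GABA signalling were mostly earlier than the 7 subunit genes. Of 28 listed, 20 were measured, with a median timing of 0.285, beside 0.842 for the 7 genes and 0.246 for all; 13 were later than the median gene. The earliest were SLC12A5, the neuronal chloride exporter, at 0.165, CLPTM1, which retains receptor subunits in the cell, at 0.170 and TRAK2, a transport adaptor, at 0.201. The latest were GAD2, an enzyme of GABA synthesis, at 0.625, GABRP, the pi subunit, at 0.573 and GABRR3, a rho subunit, at 0.475. The 14 measured of 17 ionotropic glutamate receptor genes, the excitatory counterparts, had a median of 0.547, and 12 were later than the median gene.

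In KO cells 3 of 9 GABA signalling genes with enough molecules were labelled earlier and 0 later (limma on centred timing, adjusted p under 0.05). Of 4610 genes, 13.7% were called earlier and 4.79% later. At an unadjusted p under 0.05 the list also had 3 earlier and 0 later, beside 890 earlier and 474 later of the 4610. SLC6A11, a GABA transporter, was earlier by 0.214 ± 0.0267 (SE; limma adjusted p = 7.58e-06) and GABBR2, a subunit of the GABA-B receptor, by 0.106 ± 0.0220 (adjusted p = 0.00132). GPHN, gephyrin, which anchors receptors at synapses, was earlier by 0.0778 ± 0.0195 (limma adjusted p = 0.00647). With equal weight per cell, of these 3 only SLC6A11 was past the threshold, at a limma adjusted p of 0.0205. In that setting 122 of all 4610 genes were called earlier and 31 later. Among strongly labelled cells GPHN missed the threshold, at a limma adjusted p of 0.0534. In those cells TRAK1, a transport adaptor, was called later in KO cells by 0.0542 ± 0.0156 (SE, limma adjusted p = 0.0120). Of 7 listed genes 2 were then earlier and 1 later, beside 592 earlier and 369 later of all 3514 genes. In molecules, 0 of 19 tested genes passed in limma voom, beside 1.46% of all genes, and 1, the rho subunit gene GABRR2, had an unadjusted p under 0.05, beside 12.0%.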

How the data were processed

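The deposited tables give, per the file headers, cell, chromosome, position, signed length and genotype (in the column named treatment) of each fragment, with no count or scaled value; lowest positions of 0 show 0-based coordinates, so 1 was added. Per the submitters' processing notes, positions refer to GRCh38; aligner and filters: not given in the sources used here. Every plate is labelled CFAP20-KO as its genotype, but the titles place both genotypes on each.

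Cells with at least 1000 autosomal molecules were ordered by the first correspondence axis of 500 kb autosomal bins (18.8% of variation; bins under 0.1 of the median left out), gene-rich end early. Timing needed 10 molecules in every plate, and in every plate and genotype for comparisons. Fragments of the same cell, position and direction as another made up 3.82%. Molecules summed per gene, plate and genotype (genes with a mean of at least 10) were scaled to the autosomal total and tested with limma 3.58.1 voom in R 4.3.3, and centred timing with limma. Benjamini-Hochberg adjustment ran over all genes. Single values were compared by flipping the signs of 8 plate values in all ways (an exact two-sided permutation test). Plates pair the genotypes by title; deviations from the group means correlated by 0.0167 within plates (-0.0472 to 0.0497; other plates -0.0024). In simulated cells the order found and the true order correlated by 0.997. There 81.0% of 200 genes changed by 2 times were called by voom (4.14% of calls false, 9265 genes). For timing, 38.0% of 200 genes shifted by 0.1 were called (6.17% false, 4610 genes). How well the order holds among the weakly labelled cells of the data, which fill most of its middle, was not tested. Named genes were all members, the 3 earliest and 3 latest of the GABA list and any that passed a test, the nearest measured genes and the 3 most alike in profile. Members and lists were chosen with earlier results of these data known. Some neighbouring genes are not reported here.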

Additional observations from a re-analysis of the deposited data

Results flagged for a closer look

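Of 46 sets of 8 plate values, 2 held a plate far from the rest by Dixon's ratio, about what chance flags (1 in 20). On plate 8, the SD of position of cells labelled in GABRA4 was greater in KO than in WT cells by 0.106, while the next highest plate was at -0.0045. On plate 3, the log2 density of the chromosome 5 cluster in KO over WT cells was -0.93, and the next lowest plate was at -0.13.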

How the results depend on the processing

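The chromosome 5 cluster was latest and the chromosome 4 cluster earliest under every alternative run for timing, but the scale of timing depended on how cells were weighted. With equal weight per cell the clusters on chromosomes 4, 5 and 15 were at 0.525, 0.746 and 0.679, and with each of 10 groups of the order weighted equally (chosen after seeing the data) at 0.505, 0.803 and 0.716. With at least 5000 molecules per cell the chromosome 15 gene was at 0.754. For density, the adjusted exact permutation p was above 0.05 without any 1 of plates 1 to 5 on chromosome 4 and of plates 2 to 5 on chromosome 5. The log2 values were 0.17 to 0.26 and 0.18 to 0.24 over all plates left out in turn. On chromosome 15 that p stayed under 0.05. Genes called for molecules numbered 82 with TMM scaling, against 135, and 87 to 132 with 1 plate left out (87 without plate 2, 88 without plate 7); with the plate as replicate block, higher calls were 35, against 18, and it changed no call of a member. Genes called for timing numbered 153 with equal weight per cell, against 853, and 702 to 821 with 1 plate left out. GABRB1's centred difference was 0.0453 to 0.0948 over alternatives and 0.0782 to 0.109 with 1 plate left out.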
